A study of Homo sapiens with 18 samples.

Results

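The genes of the integrated stress response and of amino acid supply were followed by RNA sequencing in THP-1 cells, an established line grown from a human monocytic leukaemia. They were 39 genes listed by name, 6 transcription factors and regulators, 8 stress effectors and feedback genes, 10 enzymes of amino acid and one-carbon synthesis, 9 amino acid transporters and 6 genes of tRNA charging and export. Each was matched through its Ensembl identifier to 1 row of the deposited count table of 63677 genes, none was without counts, and all 39 passed the filter on low counts that left 16678 genes for testing. The 18 libraries formed 6 groups of 3. KD cells carried an siRNA directed at TRAFD1, SCR cells a non-targeting siRNA and WT cells none, each siRNA at 25 nM. At 72 h after transfection they were given medium or lipopolysaccharide (LPS), a component of the outer membrane of Gram-negative bacteria, at 10 ng/ml for 4 h. The labels disagree on whether WT cells received the transfection mix without siRNA or no treatment, so that in a difference between SCR and WT the reagent and the siRNA cannot be told apart. The study's methods give each treatment as done 3 times without saying whether this means separate cultures, so that the p-values measure the spread between these libraries, which may be technical.

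The integrated stress response is a signalling pathway in which kinases that sense amino acid shortage, misfolded protein, viral RNA or lack of haem phosphorylate the translation factor eIF2. General protein synthesis then slows, while translation of the mRNA of the transcription factor ATF4 increases. ATF4 pairs with C/EBP and other basic leucine zipper proteins and activates genes that make and import amino acids, charge tRNAs and, when stress persists, stop the response or promote cell death. Several of these genes are also used in proliferating cells, where signalling through mTORC1 can raise ATF4 as well.

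ATF4 dimers are known to bind a short composite sequence, the C/EBP-ATF response element, whose letters TGATGNAA were searched on both strands of the 250 bases before the transcription start in the RefSeq promoter table (GRCh38.p14). Of the 39 genes, 33 had an entry there, and 6 of the 33 (18.2%) held the letters in at least 1 entry, against 3.89% of all 27305 genes in the table and 2.37% of the 10721 genes of the table that were tested for expression. These 6 are shown with 10 bases on either side because they hold the letters of the element that ATF4 dimers are known to bind. All lines run 5′ to 3′ on the strand of the gene, and capitals mark the element in either orientation.
AARS1, chr16:70289676-70289703, minus strand: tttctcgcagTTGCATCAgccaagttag
ASNS, chr7:97872459-97872486, minus strand: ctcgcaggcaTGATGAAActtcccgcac
ATF3, chr1:212565206-212565233, plus strand: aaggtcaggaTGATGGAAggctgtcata
CHAC1, chr15:40953252-40953279, plus strand: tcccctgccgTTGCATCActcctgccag
GARS1, chr7:30594835-30594862, plus strand: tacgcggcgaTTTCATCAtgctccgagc
SLC1A5, chr19:46784894-46784921, minus strand: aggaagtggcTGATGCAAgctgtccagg

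The elements began 187 bases before the start in AARS1, 68 in ASNS, 191 in ATF3, 209 in CHAC1, 33 in GARS1 and 97 in SLC1A5. The start is that of the entry that held the letters. ASNS, ATF3, GARS1 and SLC1A5 had further entries, for other starts, that did not hold them. The letters TATAAA, those of the TATA box, were found on either strand in 24.2% of the 33 genes, against 13% of all genes and 8.49% of the genes tested. In ATF4, GDF15 and PPP1R15A they began 27 to 30 bases before the start. In ATF3, GARS1, PHGDH, SLC38A1 and WARS1 they began 124 to 230 bases before it, in PHGDH and WARS1 on the other strand. The GC box GGGGCGGGG, bound by SP1 and related factors, was found in 27.3%, against 17.9% and 31%. No match to one of these motifs overlapped a match to another in the 33 genes. These matches describe the letters in this window and were not tested as binding sites.

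Total counts ran from 8206023 to 22344279 per library. Values are given as CPM, that is counts divided by the library total after TMM scaling and multiplied by 1e+06. A count of 0 allows up to 3 counts, which is 0.133 to 0.378 CPM and covers counting error only. The libraries were made from the 3′ end of transcripts, where a fragment is meant to stand for 1 transcript. The study's methods describe no removal of copies made by amplification. TRAFD1, the siRNA target, stood at 26.8, 20.1 and 24.3 CPM in SCR and at 11.6, 5.37 and 9.02 CPM in KD without LPS, and at 21.9, 27.5 and 18.7 CPM in SCR and 15.8, 14.0 and 13.8 CPM in KD with LPS. In both states every KD library lay below every SCR library. The log2 difference passed an edgeR adjusted p of 0.05 without LPS (-1.45) but not with LPS (-0.65). Against WT, TRAFD1 in KD was at -1.23 without LPS, which passed. With LPS it was at -0.23, which did not pass, and the groups overlapped. TRAFD1 rose with LPS in KD, by 0.73, past the same threshold. TNF, IL1B, CXCL8, CXCL10 and NFKBIA, a check of the LPS labels, were higher with LPS in each condition. Summed monocytic markers stood at 426 to 546 CPM without LPS and 446 to 498 CPM with LPS, whereas 11 markers of lymphoid, erythroid, epithelial and fibroblast cells summed to 3.2 to 5.8 and 2.6 to 6.1 CPM, with GATA1 and HBB at 0 throughout. FCGR1A made up 249 to 342 CPM of the monocytic sum. Of the 8 monocytic markers, MPO was the lowest, at 0.156 to 2.36 CPM, and CD14, a co-receptor for LPS, fell with LPS in each condition (log2 fold changes -0.74, -1.53 and -1.07), from 10.9, 16.9 and 20.7 CPM to 10.1, 10.4 and 8.52 CPM in WT, from 43.1, 30.7 and 32.7 CPM to 12.1, 13.1 and 11.8 CPM in SCR and from 23.6, 30.7 and 25.8 CPM to 10.9, 11 and 16.2 CPM in KD. CD33 fell in KD (-0.50), and the other monocytic markers were not called with LPS. Mitochondrial genes held 3.19% to 4.86% of counts without LPS and 3.72% to 5.20% with LPS.

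The first comparison asked how these genes responded to 4 h of LPS. Most of them fell, in each of the 3 siRNA conditions. LPS lowered 32 of the 39 genes in WT, 33 in SCR and 35 in KD (edgeR quasi-likelihood test, Benjamini-Hochberg adjusted p under 0.05), where 7.26%, 8.56% and 5.05% of all genes tested were lower. Only ATF3 in WT was higher, so that 1, 0 and 0 members rose where 7.01%, 8.64% and 6.41% of all genes did. The median log2 fold change of the 39 genes was -0.88 in WT, -0.89 in SCR and -0.71 in KD, beside -0.03, -0.03 and -0.0029 over all genes tested. All 3 LPS libraries lay below all 3 unstimulated ones for 33, 34 and 35 members, against 17.6%, 19.8% and 12.7% of all genes tested. In 31 members the fall passed the threshold in all 3 conditions, and 12 members fell by more than 1 on the log2 scale in each. The members were chosen with earlier results of these data known, so their excess over all genes is not an independent test.

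The decrease was visible in the sum of the members. Together they held 0.740% to 0.861% of the counts of the unstimulated libraries and 0.391% to 0.413% of those of the LPS libraries. Summed CPM averaged 7701 ± 368 without LPS and 4137 ± 153 with LPS in WT, 8082 ± 105 and 4084 ± 87.8 in SCR, and 7933 ± 553 and 4201 ± 69.1 in KD (SD, n = 3 each). All 9 LPS libraries lay below all 9 unstimulated libraries in this sum, and the same held within each of the 5 role classes. Highly expressed members weigh most in these sums, ATF4 above all. In WT, ATF4 averaged 1527 CPM without LPS and 577 CPM with LPS, where the transcription factors and regulators together averaged 2447 and 1228 CPM. The monocytic marker CD14 moved the same way, as given above, and its part in the fall of the members was not tested. These are bulk values, in which fewer cells that express a gene and less RNA of that gene per cell cannot be told apart. LPS and unstimulated libraries carry different replicate numbers, and a batch that followed the stimulation could not be separated from it.

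**Figure D1:**
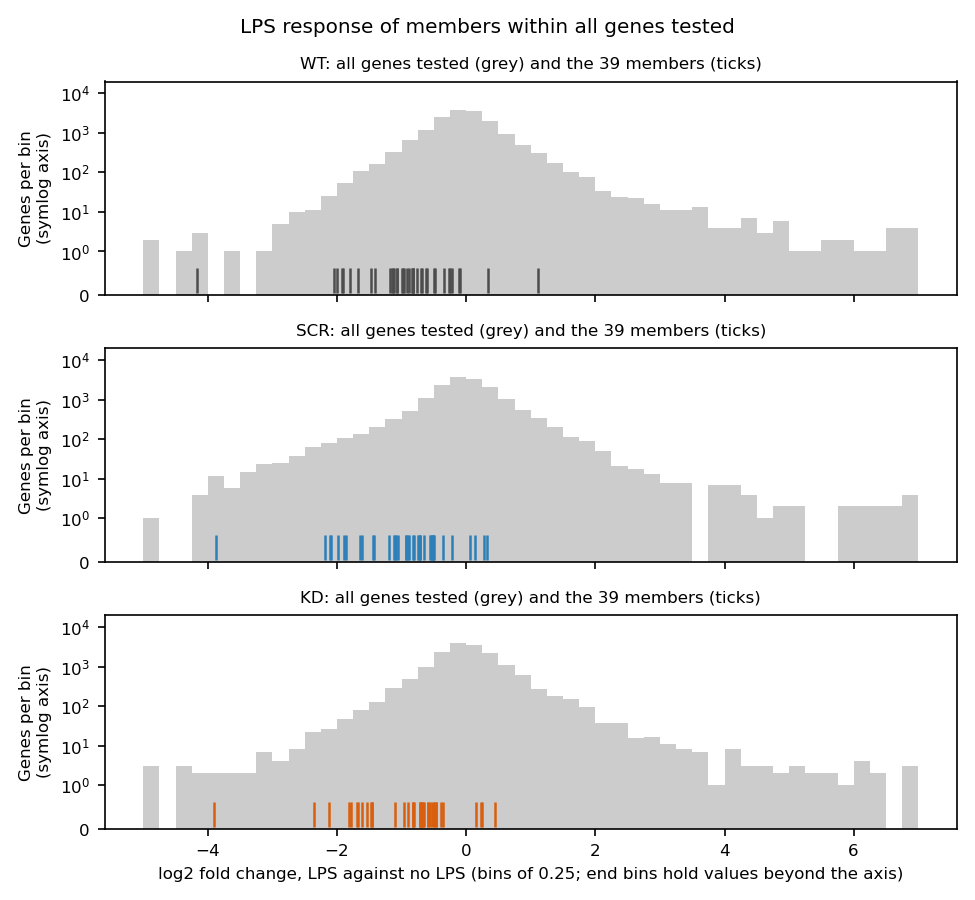
Distribution of the LPS log2 fold change over the 16678 genes tested (grey, bins of 0.25, symlog vertical axis) and of the 39 members (ticks), 1 panel per siRNA condition. The members lie mostly below 0, with medians of -0.88, -0.89 and -0.71.

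In what follows, log2 fold changes with LPS are listed in the order WT, SCR and KD, and those of members passed the threshold in all 3 conditions unless stated otherwise. Among the transcription factors and regulators, 4 of 6 were lower with LPS in WT and 5 of 6 in SCR and in KD. ATF4 (ENSG00000128272, GRCh37 chr22:39915700-39918688), the central activator of the response, fell in every condition. In WT its 3 libraries stood at 1354, 1637 and 1591 CPM without LPS and at 609, 556 and 565 CPM with LPS. The corresponding values were 1648, 1573 and 1583 CPM without and 447, 527 and 563 CPM with LPS in SCR, and 1297, 1534 and 1654 CPM without and 552, 520.2 and 561 CPM with LPS in KD. No LPS library reached the lowest unstimulated one in any condition. The log2 fold changes were -1.41, -1.64 and -1.46 (SE 0.10, 0.10 and 0.10, edgeR adjusted p 7.05e-10, 1.54e-10 and 1.06e-09). The counts of ATF4 may be split with those of its pseudogenes. ATF4P3 reached 13.8% and ATF4P4 17.0% of the level of ATF4 within a library, and their log2 fold changes were -1.67, -1.80 and -1.28 for ATF4P3 and -1.43, -1.85 and -1.44 for ATF4P4.

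DDIT3 encodes CHOP, a transcription factor that ATF4 activates and that can promote cell death. It stood at 72.9, 83.5 and 88.0 CPM without LPS and 32.2, 38.3 and 37.4 CPM with LPS in WT, at 93.4, 117 and 103 CPM without and 44.3, 53.2 and 47.5 CPM with LPS in SCR, and at 119, 125 and 126 CPM without and 39.5, 38.8 and 54.6 CPM with LPS in KD. Its log2 fold changes of -1.18, -1.11 and -1.48 (SE 0.13, 0.13 and 0.13) passed the threshold in all 3 conditions. The annotated span of MARS1, which is a member too, overlaps the last 500 bases of DDIT3 on the other strand. The 3′ ends of DDIT3 and MARS1 lie at GRCh37 chr12:57910371 and chr12:57911352, so that their own last 500 bases overlap only at the edge. The strand setting of the counting is not given in the sources used here. Counts of this pair may be shared at that edge, and how many was not tested. TRIB3, a pseudokinase that is induced by ATF4 and CHOP and dampens their activity, had the lowest mean fold change of this class. Its libraries ran from 151, 151 and 212 CPM without to 61.4, 62.3 and 62.7 CPM with LPS in WT, from 275, 268 and 275 CPM without to 76.7, 98.1 and 90.8 CPM with LPS in SCR and from 216, 324 and 235 CPM without to 70.6, 75 and 79.9 CPM with LPS in KD (log2 fold changes -1.47, -1.62 and -1.78, SE 0.14, 0.14 and 0.14). NUPR1, a stress-induced chromatin-associated protein, gave log2 fold changes of -0.99, -1.10 and -1.11.

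ATF5 and ATF3 were not lower in every condition. ATF5, whose mRNA is translated under stress in the manner of ATF4, stood at 378, 604 and 463 CPM without LPS and 475, 424 and 446 CPM with LPS in WT, where the groups overlapped. It read 477, 546 and 469 CPM without and 329, 335 and 366 CPM with LPS in SCR and 434, 529 and 657 CPM without and 399, 367 and 385 CPM with LPS in KD, where every LPS library was lower. The log2 fold changes were -0.10, -0.53 and -0.49 and only those of SCR and KD passed the threshold (edgeR adjusted p 0.701, 0.0103 and 0.0242). The difference between these responses was not past the threshold, and the call in SCR was lost without unstimulated SCR replicate 2 or SCR LPS replicate 4, and that in KD without unstimulated replicate 3 or any 1 LPS library, where the log2 fold change ran from -0.52 to -0.33.

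ATF3, a transcription factor induced by many stresses and by inflammatory signals, was the only member that rose. In WT it stood at 7.69, 6.72 and 7.69 CPM without LPS and 14.1, 18.7 and 15 CPM with LPS, so that every LPS library was above every unstimulated one. In SCR the values were 17.9, 14.4 and 16.0 CPM without and 15.1, 19.0 and 18.9 CPM with LPS, with overlap, and in KD 14.2, 17.4 and 12.2 CPM without and 18, 20.9 and 20.7 CPM with LPS, without overlap. The log2 fold change of 1.11 in WT (SE 0.17, edgeR adjusted p 5.87e-05) passed the threshold, whereas 0.13 in SCR and 0.45 in KD did not (edgeR adjusted p 0.619 and 0.0722). Without unstimulated KD replicate 2, the response in KD was 0.59 and passed (edgeR adjusted p 0.0314). The levels without LPS differed between the conditions, as described further on.

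**Figure D2:**
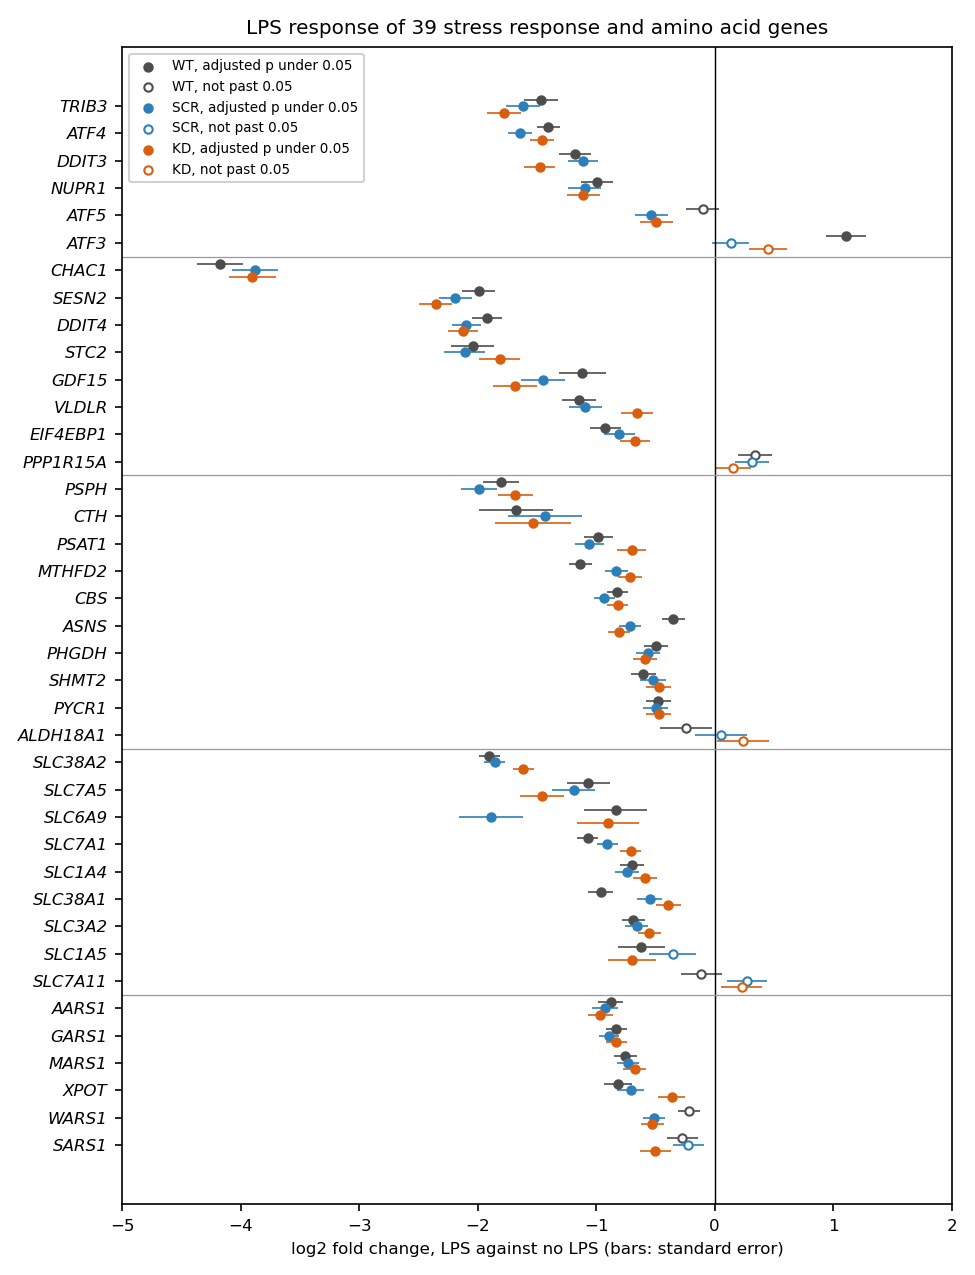
Log2 fold change of each of the 39 members with LPS against without LPS in WT, SCR and KD, grouped by role and ordered within each role by the mean over the 3 conditions. Bars are standard errors and filled points passed an adjusted p of 0.05, and the values run from -4.18 for CHAC1 in WT to 1.11 for ATF3 in WT.

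Of the 8 stress effectors and feedback genes, 7 fell in each condition. CHAC1 (ENSG00000128965, GRCh37 chr15:41245160-41248710) had the most negative fold change of all members. It encodes an enzyme that breaks down glutathione and is a late target of ATF4 and CHOP. In WT its libraries stood at 90.3, 79.5 and 107 CPM without LPS and at 3.50, 6.43 and 5.29 CPM with LPS. In SCR they stood at 71.8, 72.6 and 67.2 CPM without and 4.92, 5.42 and 4.04 CPM with LPS, and in KD at 47.2, 68.5 and 58.7 CPM without and 3.58, 3.36 and 4.73 CPM with LPS. The lowest unstimulated library of any condition was therefore far above the highest LPS library, and every LPS library stayed above the limit that a count of 0 allows. The log2 fold changes were -4.18, -3.88 and -3.90 (SE 0.20, 0.20 and 0.20, edgeR adjusted p 1.37e-12, 9.21e-12 and 9.58e-12). Counted from the lowest fold change of the 16678 genes tested, CHAC1 ranked 5 in WT, 12 in SCR and 10 in KD.

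SESN2 and DDIT4 both restrain mTORC1, the kinase complex that couples nutrient supply to growth, and STC2 encodes a secreted glycoprotein induced by stress. SESN2 was at 121, 129 and 155 CPM without LPS and 34.6, 30.1 and 37.2 CPM with LPS in WT, at 131, 161 and 140.4 CPM without and 31.5, 32.1 and 31.2 CPM with LPS in SCR, and at 105, 157 and 126 CPM without and 27.0, 22.2 and 26.8 CPM with LPS in KD (log2 fold changes -1.99, -2.19 and -2.36, SE 0.14, 0.14 and 0.14). STC2 was at 33.1, 30.3 and 44.2 CPM without and 8.85, 8.19 and 9.21 CPM with LPS in WT, 74.2, 67.9 and 54.3 CPM without and 14.1, 18.8 and 12.5 CPM with LPS in SCR, and 48.9, 42.8 and 52.2 CPM without and 11.4, 14.2 and 15.3 CPM with LPS in KD (log2 fold changes -2.04, -2.11 and -1.81, SE 0.18, 0.17 and 0.17). DDIT4 gave log2 fold changes of -1.92, -2.10 and -2.12. For all 3 genes the LPS libraries lay below the unstimulated ones in every condition. GDF15, a secreted stress cytokine that suppresses appetite, fell as well, from 12.9, 16.3 and 22.8 CPM without to 8.46, 7.10 and 8.62 CPM with LPS in WT, from 47.8, 65.7 and 52.6 CPM without to 17.7, 22.9 and 19.9 CPM with LPS in SCR and from 53.0, 77.5 and 67.6 CPM without to 19.7, 18.8 and 23.0 CPM with LPS in KD. Its log2 fold changes were -1.12, -1.45 and -1.69 (SE 0.20, 0.18 and 0.18, edgeR adjusted p 4.54e-04, 1.01e-05 and 1.46e-06), and its log2 difference between WT and the siRNA-treated conditions was the largest of the members.

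EIF4EBP1 encodes 4E-BP1, a repressor of cap-dependent translation that is inactivated by mTORC1. By the mean over the 3 conditions it fell least among the effectors called in at least 2. WT libraries read 50.6, 64.8 and 47.2 CPM without LPS and 31.2, 30.8 and 23.5 CPM with LPS, SCR libraries 57.8, 53.8 and 55.3 CPM without and 33.0, 29.3 and 33.4 CPM with LPS, and KD libraries 76.9, 74.9 and 88.4 CPM without and 53.3, 49.7 and 47.8 CPM with LPS (log2 fold changes -0.92, -0.80 and -0.67, SE 0.13, 0.13 and 0.13). VLDLR, a lipoprotein receptor and ATF4 target, gave -1.15, -1.09 and -0.66. PPP1R15A encodes GADD34, the phosphatase subunit that removes the phosphate from eIF2 and ends the response. Its log2 fold changes of 0.34, 0.32 and 0.16 were positive and did not pass the threshold, although all 3 LPS libraries of SCR lay above the unstimulated ones (edgeR adjusted p 0.134, 0.143 and 0.518). It passed in SCR when the 6 libraries of that pair were fitted alone (log2 fold change 0.32, edgeR adjusted p 0.0394).

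**Figure D3:**
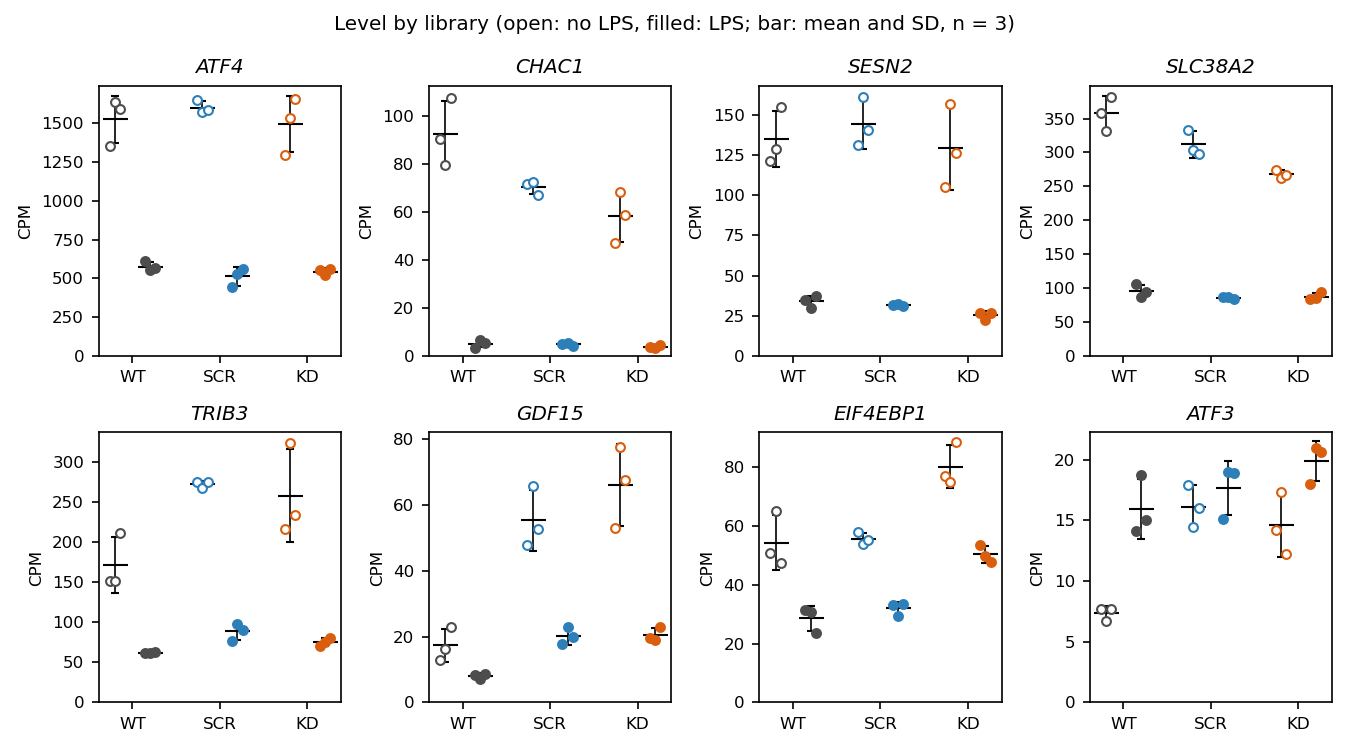
CPM by library for ATF4, CHAC1, SESN2, SLC38A2, TRIB3, GDF15, EIF4EBP1 and ATF3, open circles without LPS and filled circles with LPS, with the mean and SD of each group (n = 3) and each vertical axis starting at 0. The first 7 genes are lower with LPS in every condition, GDF15 and TRIB3 start from a lower level in WT than in SCR, EIF4EBP1 is highest in KD, and ATF3 is low only in the unstimulated WT libraries.

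The enzymes of amino acid and one-carbon synthesis fell in 9 of 10 cases in each condition, and their median log2 fold changes in WT, SCR and KD were -0.71, -0.77 and -0.71. The lowest were PSPH, which performs the last step of serine synthesis, and CTH, which makes cysteine from cystathionine. PSPH read 48.7, 51.0 and 57.5 CPM without LPS and 15.3, 14.2 and 15.6 CPM with LPS in WT, 50.1, 42.5 and 48.1 CPM without and 11, 10.1 and 14.2 CPM with LPS in SCR, and 37.5, 45.4 and 45.7 CPM without and 13.6, 15.6 and 10.7 CPM with LPS in KD (log2 fold changes -1.80, -1.99 and -1.68, SE 0.15, 0.15 and 0.15). The pseudogene PSPHP1 reached 18.5% of the level of PSPH within a library. CTH was measured at few counts, with 7.29, 6.45 and 6.18 CPM without and 2.24, 1.75 and 2.25 CPM with LPS in WT, 7.64, 4.38 and 4.24 CPM without and 1.77, 2.78 and 1.49 CPM with LPS in SCR and 4.43, 3.64 and 4.90 CPM without and 1.75, 0.960 and 1.83 CPM with LPS in KD (log2 fold changes -1.67, -1.43 and -1.53, SE 0.31, 0.31 and 0.32). All LPS libraries of CTH lay below the unstimulated ones of their condition. The other enzymes of serine synthesis, PHGDH, which makes the first step, and PSAT1, which makes the second, gave log2 fold changes of -0.49, -0.56 and -0.59 and of -0.98, -1.06 and -0.70.

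SHMT2 and MTHFD2, mitochondrial enzymes that pass the one-carbon unit of serine to folate, fell with log2 fold changes of -0.60, -0.52 and -0.47 and of -1.13, -0.83 and -0.72, and the call of SHMT2 in KD was lost without unstimulated replicate 3, at -0.32. CBS, which forms cystathionine upstream of CTH, gave -0.82, -0.93 and -0.82. PYCR1, which makes the last step of proline synthesis in mitochondria, had the mean fold change closest to 0 among the enzymes called in at least 2 conditions. It read 115, 137 and 129 CPM without LPS and 93.7, 80.6 and 99.3 CPM with LPS in WT, 103, 122 and 108 CPM without and 76.9, 78.3 and 80.7 CPM with LPS in SCR, and 97.1, 112 and 117 CPM without and 81.7, 71.8 and 81.5 CPM with LPS in KD (log2 fold changes -0.48, -0.50 and -0.47). The groups did not overlap in any condition. ALDH18A1, which makes the first steps of proline synthesis, was the exception of this class, with log2 fold changes of -0.24, 0.05 and 0.24 that did not pass the threshold (SE 0.22, 0.22 and 0.22). ASNS, asparagine synthetase and a standard readout of ATF4 activity, read 222, 258 and 268 CPM without LPS and 203, 185 and 199 CPM with LPS in WT, 318, 325 and 320.4 CPM without and 193, 188 and 207 CPM with LPS in SCR, and 294, 363 and 345 CPM without and 206, 175 and 191 CPM with LPS in KD. With LPS the 9 libraries lay close together, whereas without LPS the WT libraries were lowest. Its log2 fold changes were -0.35, -0.71 and -0.81 (SE 0.09, 0.09 and 0.09, edgeR adjusted p 0.0152, 1.75e-05 and 4.41e-06), and the call in WT was lost without unstimulated replicate 3 or LPS replicate 5.

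Among the amino acid transporters, 8 of 9 fell in WT, 7 in SCR and 8 in KD. SLC38A2 (ENSG00000134294, GRCh37 chr12:46751971-46766556) encodes SNAT2, a sodium-coupled importer of small neutral amino acids that is induced by amino acid shortage. Its libraries stood at 358, 332 and 382 CPM without LPS and 106, 87.3 and 94.3 CPM with LPS in WT, at 334, 304 and 298 CPM without and 87.1, 87.2 and 83.9 CPM with LPS in SCR, and at 274, 262 and 266 CPM without and 83.5, 85.0 and 93.5 CPM with LPS in KD. The separation was wide in each condition, with log2 fold changes of -1.90, -1.86 and -1.62 (SE 0.09, 0.09 and 0.09, edgeR adjusted p 1.87e-12, 8.03e-12 and 5.33e-11). SLC7A5, the light chain of the leucine transporter LAT1, read 244, 449 and 266 CPM without LPS and 162, 157 and 139 CPM with LPS in WT, 299, 394 and 340.3 CPM without and 128, 155 and 168 CPM with LPS in SCR, and 316, 410.4 and 488 CPM without and 149.5, 133 and 161 CPM with LPS in KD. Replicate 2 of unstimulated WT was high, and all groups were still apart (log2 fold changes -1.07, -1.19 and -1.45, SE 0.18, 0.18 and 0.19). Its heavy chain partner SLC3A2 gave -0.69, -0.66 and -0.55.

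The light chain SLC7A11 of the cystine importer, which pairs with the same heavy chain, gave log2 fold changes of -0.11, 0.27 and 0.23 and did not pass the threshold in any condition (edgeR adjusted p 0.741, 0.306 and 0.430). In KD it passed with a positive value without unstimulated replicate 1 (log2 fold change 0.48, edgeR adjusted p 0.0369). SLC7A1, an importer of arginine and lysine, read 130.2, 120.0 and 131 CPM without LPS and 61.4, 61.4 and 58.2 CPM with LPS in WT, 145, 134 and 138 CPM without and 81.5, 68.0 and 73.7 CPM with LPS in SCR, and 132, 129 and 138 CPM without and 80.7, 76.3 and 87.3 CPM with LPS in KD (log2 fold changes -1.07, -0.91 and -0.71, SE 0.09, 0.09 and 0.09). Its unstimulated levels were close in the 3 conditions and its levels with LPS were lowest in WT. SLC1A4, which carries alanine, serine and cysteine, gave -0.70, -0.74 and -0.59, and SLC38A1, which carries glutamine, gave -0.96, -0.55 and -0.39. The call of SLC38A1 in KD was lost when unstimulated replicate 1 or LPS replicate 4 or 6 was left out, with log2 fold changes of -0.29, -0.35 and -0.40.

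SLC1A5, the glutamine exchanger ASCT2, gave calls that depended on single libraries. It read 193, 150.2 and 188 CPM without LPS and 136, 110.2 and 100.5 CPM with LPS in WT, 173, 159.8 and 142 CPM without and 145, 98.3 and 129 CPM with LPS in SCR, and 145, 268 and 142 CPM without and 93.6, 119 and 129 CPM with LPS in KD. The SCR groups overlapped, and replicate 2 of unstimulated KD was far above the other two. The log2 fold changes were -0.62, -0.35 and -0.70 (SE 0.20, 0.20 and 0.20, edgeR adjusted p 0.0413, 0.244 and 0.0261). Without unstimulated KD replicate 2 the value in KD was -0.33 (edgeR adjusted p 0.228), the call there was also lost without LPS replicate 4 or 5, and the call in WT was lost without unstimulated replicate 1 or 3 or LPS replicate 5 or 6. SLC6A9, the glycine transporter GlyT1, had few counts and gave -0.84, -1.89 and -0.90. Its calls in WT and KD were lost without the filter on low counts and when single libraries were left out. The log2 fold changes then lay between -0.92 and -0.70 in WT and between -0.87 and -0.78 in KD. The annotated span of its neighbour CCDC24 overlaps its last 500 bases, and CCDC24 reached 87.5% of the level of SLC6A9 within a library. Whether the counting windows of SLC6A9 and CCDC24 overlap was not tested.

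**Figure D4:**
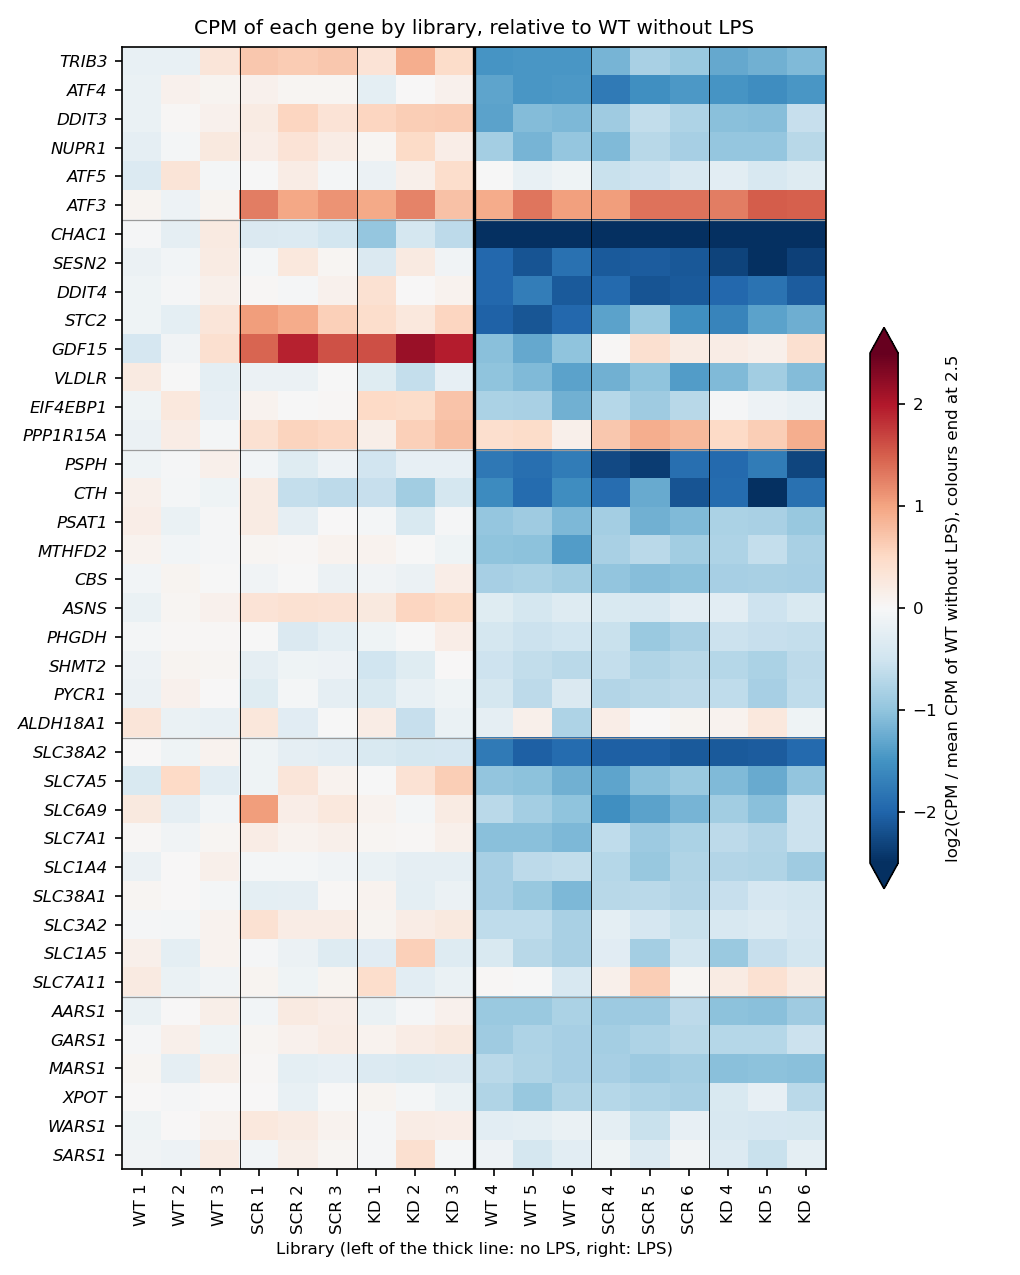
CPM of the 39 members in each of the 18 libraries as log2 of the ratio to the mean CPM of the unstimulated WT libraries, rows grouped by role and columns by group, with the colour scale ending at 2.5 in both directions. The LPS libraries to the right of the thick line are blue in most rows, ATF3, PPP1R15A, ALDH18A1 and SLC7A11 are exceptions, and GDF15 is red in the unstimulated SCR and KD libraries.

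In the genes of tRNA charging and export, 4 of 6 fell in WT, 5 in SCR and 6 in KD. AARS1 and GARS1 charge tRNAs with alanine and glycine. AARS1 read 247, 276 and 304 CPM without LPS and 145, 145 and 160.1 CPM with LPS in WT, 262, 321 and 308 CPM without and 147, 147 and 176 CPM with LPS in SCR, and 247, 271 and 298 CPM without and 136, 134 and 148 CPM with LPS in KD (log2 fold changes -0.88, -0.93 and -0.97, SE 0.11, 0.11 and 0.11). GARS1 read 234, 259.8 and 223 CPM without and 129, 139 and 135 CPM with LPS in WT, 248, 259 and 273 CPM without and 133, 139.8 and 148 CPM with LPS in SCR, and 255, 272 and 285 CPM without and 147, 145 and 165 CPM with LPS in KD (log2 fold changes -0.83, -0.89 and -0.83, SE 0.09, 0.09 and 0.09). Both genes, whose promoter elements are shown above, kept apart with and without LPS in every condition. MARS1, which charges methionine, gave -0.75, -0.73 and -0.68, and XPOT, which exports tRNAs from the nucleus, gave -0.82, -0.71 and -0.36. The call of XPOT in KD was lost without any 1 of the libraries other than LPS replicate 5, with log2 fold changes from -0.41 to -0.24.

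WARS1, which charges tryptophan and is also induced by interferon gamma, had the mean fold change closest to 0 among those called in at least 2 conditions. It read 258, 282 and 296 CPM without LPS and 234, 236 and 249.6 CPM with LPS in WT, 333, 323 and 296 CPM without and 236, 190.4 and 241 CPM with LPS in SCR, and 274, 316 and 311 CPM without and 212, 208 and 205 CPM with LPS in KD. No pair of groups overlapped, and the log2 fold changes of -0.22, -0.51 and -0.53 passed the threshold in SCR and KD (edgeR adjusted p 0.137, 6.78e-04 and 7.12e-04). SARS1, which charges serine, gave -0.27, -0.22 and -0.50 and passed in KD, where the call was lost without unstimulated replicate 2 or LPS replicate 5 (-0.34 and -0.42).

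Of the 6 genes with the element in the window searched, AARS1, ASNS, CHAC1 and GARS1 were lower with LPS in all 3 conditions, SLC1A5 in WT and KD, and ATF3 in none. Genes without it in that window, among them ATF4, SESN2, DDIT4 and SLC38A2, fell too.

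Related genes outside the 39 were counted in the same tests, and the shares of all genes tested that rose or fell are those given above. A list of 15 genes held the eIF2 kinases, eIF2 and eIF2B, which act upstream of ATF4, together with PPP1R15B, GCN1 and IMPACT. Of these 15, 0 rose and 2 fell in WT, 3 rose and 1 fell in SCR, and 1 rose and 1 fell in KD. EIF2S2, the beta subunit of eIF2, gave -0.31, -0.30 and -0.33, and EIF2AK2, the double-stranded RNA sensor PKR and an interferon target, gave 0.21, 0.58 and 0.60 and did not pass in WT. Of the 15 other cytosolic tRNA synthetases, 1 rose and 6 fell in WT, 1 rose and 4 fell in SCR, and 0 rose and 4 fell in KD. CARS1 for cysteine gave -1.0, -0.97 and -1.08, NARS1 for asparagine -0.58, -0.33 and -0.45 and RARS1 for arginine 0.55, 0.68 and 0.17, which did not pass in KD. Of the 18 other amino acid transporters, 4 rose and 1 fell in WT, 4 rose and 3 fell in SCR, and 3 rose and 2 fell in KD. SLC43A2, a carrier of large neutral amino acids, rose with 1.84, 1.70 and 1.25. SLC1A3, a glutamate importer, gave 1.81, 1.35 and 0.69, and SLC7A7, the light chain of an exporter of basic amino acids, gave -0.59, -0.64 and -0.21, both without passing in KD.

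Of the 13 other amino acid and one-carbon enzymes, 12 were tested, and 0 rose and 5 fell in each condition. GPT2, the mitochondrial alanine aminotransferase, gave -1.67, -1.31 and -1.23. ALDH1L2 of mitochondrial folate metabolism gave -0.65, -0.11 and -0.44 and did not pass in SCR, and MTHFD1L of the same pathway gave -0.26, -0.50 and -0.48 and did not pass in WT. Of 10 partners and further targets of ATF4, 9 were tested, 0 rose in any condition, and 7 fell in WT, 7 in SCR and 5 in KD. INHBE, which encodes an activin subunit, stood at 75.3, 75.8 and 95.7 CPM without LPS and 12.8, 16.0 and 13.7 CPM with LPS in WT, and its log2 fold changes were -2.53, -2.18 and -2.04. CEBPB, a dimer partner of ATF4, gave -0.64, -0.63 and -0.70, and CCPG1, an autophagy receptor of the endoplasmic reticulum, gave -0.77, -0.77 and -0.26 and did not pass in KD.

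The next comparison asked whether the siRNA against TRAFD1 changed these genes relative to the non-targeting siRNA. None of the 39 members passed the threshold in KD against SCR, without or with LPS, by edgeR, where 0.0660% and 0% of all genes tested were called. TRAFD1 itself passed in this comparison only without LPS. At an unadjusted p under 0.05 there were 5 members without LPS and 4 with LPS (12.6% and 11.8% of all genes tested), and DESeq2 called 1 member in each state, where it called 2.92% and 2.18% of the genes to which it gave an adjusted p, the base of its shares throughout. The log2 differences of the members ran from -0.47 to 0.52 without LPS and from -0.45 to 0.66 with LPS, with a median SE of 0.13 in both. The member that DESeq2 called was EIF4EBP1 in both states. It was the highest of the 39 in both, at 0.52 without LPS (SE 0.13, edgeR adjusted p 0.0802, DESeq2 adjusted p 0.00753) and 0.66 with LPS (SE 0.13, edgeR adjusted p 0.0667, DESeq2 adjusted p 0.00164). Every KD library lay above every SCR library in each state for this gene, as the values by library given above show. Of all genes tested, 15.1% without LPS and 21.5% with LPS had KD and SCR libraries apart in either direction. The edgeR fit without the filter on low counts also called it in both states, where 0.939% and 1.25% of all genes were called, and the fit to the 6 libraries of the pair called it with LPS only, where 1.05% were.

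SCR and KD each differed from WT in a few members, and these comparisons share the WT libraries. Without LPS, 5 members were higher in SCR than in WT and 0 lower, where 1.78% of all genes tested were higher. In KD against WT, 7 were higher and 3 lower, where 5.85% of all genes were higher and 5.85% lower. GDF15 had the largest difference, 1.66 in SCR (SE 0.18, edgeR adjusted p 1.47e-05) and 1.92 in KD (SE 0.18, edgeR adjusted p 2.90e-06), and no WT library reached the lowest SCR or KD library. ATF3 differed by 1.13 and 0.98 (edgeR adjusted p 4.93e-04 and 7.23e-04), and the libraries of unstimulated SCR and KD overlapped those of WT with LPS. TRIB3 differed by 0.67 and 0.59, and ASNS by 0.37 and 0.42, all past the threshold. Of the 5 genes used to check the LPS labels, 3 were also higher than in WT in SCR and 3 in KD. TNF, an inflammatory cytokine, stood without LPS at 12.7, 18.7 and 16.2 CPM in WT, 46.9, 47.9 and 35.1 CPM in SCR and 45.2, 49.6 and 34.9 CPM in KD (log2 differences from WT 1.46 and 1.45). The chemokine CXCL10 was higher by 1.89 in SCR and 1.03 in KD, NFKBIA by 0.63 in SCR and CXCL8 by 1.82 in KD. CD14 was higher in both as well, by 1.14 and 0.72. The part of these higher levels in the differences of the members was not tested.

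The other members called passed in 1 of these 2 comparisons. STC2 was higher in SCR, by 0.86 (edgeR adjusted p 0.00470), and stood at 0.42 in KD (edgeR adjusted p 0.106). DDIT3, EIF4EBP1 and PPP1R15A were higher in KD, by 0.60, 0.57 and 0.52, beside 0.36, 0.04 and 0.49 in SCR, which did not pass. CHAC1, SLC38A2 and MARS1 were lower in KD, at -0.67, -0.42 and -0.36 on the log2 scale, beside -0.39, -0.20 and -0.13 in SCR. ATF4 itself gave 0.07 and -0.03 and did not pass (edgeR adjusted p 0.777 and 0.881). In SCR against WT, 3 members passed when unstimulated WT replicate 1 was left out, and TRIB3 and ASNS were then at 0.58 and 0.29 (edgeR adjusted p 0.0575 and 0.159). The call of ASNS there was lost without any 1 library other than WT replicate 3, at 0.29 to 0.39. In KD against WT, the fit to the 6 libraries of the pair called 3 members, where 1.81% of all genes were called. Calls were also lost there for CHAC1 without WT replicate 3 (-0.55), for TRIB3 without KD replicate 2 (0.39), for MARS1 without WT replicate 1 or 3 (-0.33 and -0.28), and for PPP1R15A without WT replicate 1 or 3 or KD replicate 2 or 3 (0.39 to 0.50).

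**Figure D5:**
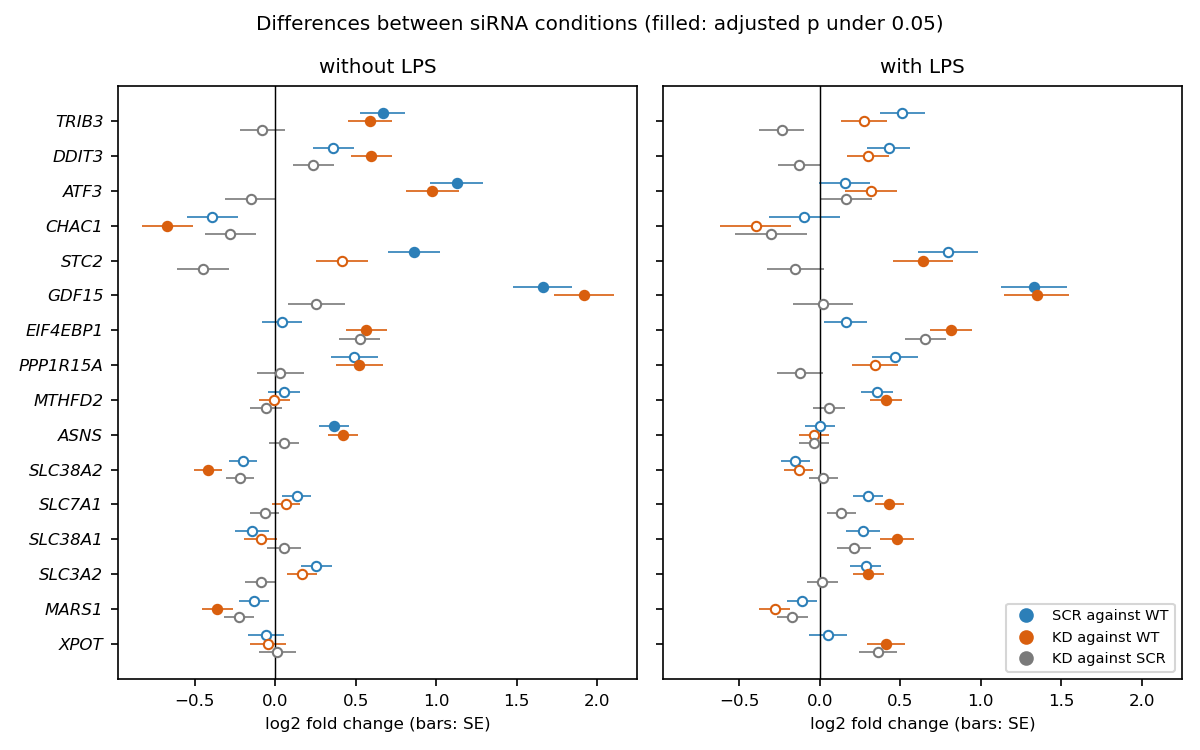
Log2 differences between siRNA conditions, without LPS on the left and with LPS on the right, for the 16 members past the threshold in at least 1 of these comparisons, with standard errors as bars and filled points for an adjusted p under 0.05. GDF15 lies furthest to the right in SCR and KD against WT in both states, and no point of KD against SCR is filled.

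With LPS, GDF15 was the only member higher in SCR than in WT, by 1.33 (SE 0.20, edgeR adjusted p 0.00724), where 0.0240% of all genes tested were higher. Without SCR LPS replicate 5 it was at 1.23 and 0 members passed (edgeR adjusted p 0.0682). Libraries of SCR and WT with the same replicate number deviated together with LPS, and with the replicate number as a block 9 members passed. The block was fitted to the LPS libraries of all 3 conditions. Same-numbered KD libraries did not all deviate with those of WT (correlations -0.0737, 0.0367 and -0.0058) or SCR (-0.0875, 0.0896 and 0.0677). In that fit 4.61% of all genes tested were higher and 4.05% lower. Of the 9 members, 7 were higher, namely DDIT3, TRIB3, GDF15, PPP1R15A, STC2, MTHFD2 and SLC7A11, with log2 differences from 0.34 for MTHFD2 to 1.31 for GDF15, and ATF5 and PHGDH were lower, at -0.41 and -0.29. DESeq2 called 3 members, where it called 2.11% of genes, and the edgeR fit without the filter on low counts called 6, where it called 1.74%.

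In KD against WT with LPS, 8 members were higher and 0 lower, where 6.29% of all genes tested were higher. TRAFD1 itself did not pass there, at -0.23. GDF15 was at 1.35 and EIF4EBP1 at 0.82 (edgeR adjusted p 8.66e-04 and 0.00116), and STC2 at 0.64. The others were the transporters SLC38A1, SLC7A1 and SLC3A2, at 0.48, 0.43 and 0.30, the folate enzyme MTHFD2 at 0.41 and the tRNA exporter XPOT at 0.41. In SCR against WT with LPS the same 5 genes read 0.27, 0.30, 0.29, 0.36 and 0.05, none past the threshold. The count fell to 5 without WT LPS replicate 4 or 5, to 3 without WT LPS replicate 6 and to 4 without KD LPS replicate 5, and rose to 13, with 9 higher and 4 lower, in the fit to the 6 libraries of the pair, where 11.5% of all genes tested were higher and 10.1% lower. The call of SLC3A2 was lost without any 1 of the 6 libraries, at 0.25 to 0.33, that of STC2 without any but KD replicate 4, at 0.55 to 0.68, and that of XPOT without any but KD replicate 6, at 0.29 to 0.44. MTHFD2 lost its call without WT replicate 6 or KD replicate 5, at 0.30 and 0.35, and SLC38A1 without WT replicate 6, at 0.40.

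The last comparison asked whether the LPS response of a member differed between the siRNA conditions. No member passed by edgeR for SCR minus WT, KD minus SCR or KD minus WT, where 0.234%, 0% and 0.360% of all genes tested were called. At an unadjusted p under 0.05 there were 7, 4 and 10 members (9.96%, 7.64% and 15.5% of all genes tested), and DESeq2 called 1, 0 and 2, where it called 0.424%, 0% and 3.22% of genes. The differences of log2 fold changes ran from -1.05 to 0.41, from -0.36 to 0.99 and from -0.66 to 0.57, with a median SE of 0.18 in each. The response of ATF3 in SCR minus that in WT was -0.97 (SE 0.23, edgeR adjusted p 0.103, DESeq2 adjusted p 0.0306). The 2 members that DESeq2 called for KD minus WT were ASNS at -0.46 (edgeR adjusted p 0.144) and SLC38A1 at 0.57 (edgeR adjusted p 0.104). Without unstimulated KD replicate 1, edgeR called 3 members for KD minus WT, 2 with a positive and 1 with a negative difference, where 7.64% of all genes tested were called. ATF4 and CHAC1 gave -0.24 and 0.30 for SCR minus WT, 0.19 and -0.02 for KD minus SCR, and -0.05 and 0.27 for KD minus WT, with SE of 0.14 for ATF4 and 0.27 for CHAC1 in KD minus SCR.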

How the data were processed

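RNA of THP-1 cells was profiled in 18 libraries with QuantSeq, a 3′-end method. Per the labels and the study's methods, the authors trimmed the reads, aligned them to GRCh37 with HISAT and counted them with featureCounts in a window of 500 bp at one end of each gene; the deposited values are raw read counts per gene. After filterByExpr by group, the quasi-likelihood F test of edgeR 4.0.16 (R 4.3.3) was run on the 18 libraries together, with TMM factors, a mean for each group, Benjamini-Hochberg adjustment over the 16678 genes tested and a threshold of 0.05. The SE was obtained from the fold change and the root of F. An exact permutation test of 1 gene cannot pass the threshold with 3 against 3. Alternatives were DESeq2 1.42.0, no filter, other scaling, the libraries of a pair alone, a replicate block and leaving out each library. The edgeR step was also run on simulated data, in which all genes shared the same spread and only WT with LPS was changed. The data here differ from that setting, and no result above rests on that run. Counts of replicates differed by more than sampling noise, with a chi-square per degree of freedom from 4.915 to 33.6. The highest value was that of unstimulated KD replicates 1 and 2. Without unstimulated KD replicate 1, 18.3% of all genes tested were called for the LPS response in KD, against 11.5% with it.

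The members and gene lists were chosen with earlier results of these data known. CPM by library are printed for ATF4, DDIT3, ATF3 and CHAC1, for the 2 lowest and the 1 highest member of each role class by mean LPS fold change among those called in at least 2 conditions, and for at most 8 members called between conditions, by smallest adjusted p. Each further list names at most 3 genes, the lowest and the 2 highest by the same measure. INHBE was given by library in WT. SLC6A9 and members named to resolve a count or a lost call were singled out after their values were seen. Same-numbered libraries of SCR and WT with LPS deviated from their group means with correlations of 0.261, 0.163 and 0.253, so the block is given for that comparison.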

Additional observations from a re-analysis of the deposited data

How the results depend on the processing

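The fall of the members with LPS kept its direction and its count within 1.5 times under every alternative, from 30 to 33 members called in WT, 32 to 33 in SCR and 30 to 34 in KD when 1 library was left out. In 26 members the fall passed the threshold in all 3 conditions under every setting run. The comparisons of conditions depended more on the settings. In SCR against WT with LPS, the 1 member called became 3 with DESeq2, 6 without the filter and 9 with the replicate block, and 0 to 1 with 1 library left out. In KD against SCR, the 0 called became 1 with DESeq2 and 1 without the filter in each state, and with LPS 1 also with the libraries of the pair alone and 1 with the replicate block, which called 7.35% of all genes there. Leaving out 1 library gave 0 to 0 there. In KD against WT, the 10 called without LPS became 3 with the pair alone and 8 to 11 with 1 library left out, and the 8 with LPS became 13 with the pair alone, 16 with the replicate block (25.1% of all genes) and 3 to 6 with 1 library left out. SCR against WT without LPS gave 3 to 5 with 1 library left out. For the difference in LPS response between SCR and WT, DESeq2 called 1, and between KD and WT DESeq2 called 2, the fit without the filter 1, and leaving out 1 library 0 to 3. The other differences in response stayed at 0 to 0 with 1 library left out. The cause of these shifts was not tested.

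Signs turned in 3 values, none of them past the threshold. With 1 library left out, ATF5 in WT ran from -0.250 to 0.0911 (positive without unstimulated replicate 2), SLC7A11 in WT from -0.188 to 0.0192 (positive without unstimulated replicate 1, and 0.0121 without LPS replicate 6), and ALDH18A1 in SCR from -0.0737 (without unstimulated replicate 2) to 0.217. Of the 117 LPS fold changes of single members and their 24 condition differences past the threshold, refitted with 1 library left out, 772 values kept direction and side of the threshold, 68 lost the call and 2 gained it. Under the other alternatives 700 kept both, 27 lost the call and 2 gained it. For the 327 condition differences and differences in response that did not pass, 7 values gained a call with 1 library left out and 2657 did not, and 47 gained one under the other alternatives and 1672 did not, with 9 left without an adjusted p by DESeq2. The replicate block changed no other count by over 1.5 times. Where same-numbered libraries did not all deviate together, they share only a number. No paired analysis was possible for the LPS responses because unstimulated and LPS libraries carry different replicate numbers. CTH, SLC6A9 and ALDH18A1 had the largest standard errors, and of these CTH and SLC6A9 had few counts.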
